A study of Rattus norvegicus with 3 samples.

Results

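The platelet-derived growth factor (PDGF) family was examined in tendon stem/progenitor cells (TSPCs) of rats aged 1, 7 and 56 days. The family has 4 ligand genes, *Pdgfa*, *Pdgfb*, *Pdgfc* and *Pdgfd*, and 2 receptor genes, *Pdgfra* and *Pdgfrb*. They were chosen by name: every probe set (a group of short probes for 1 transcript) to which the platform's annotation gives one of these symbols alone was taken. This gave 7 probe sets for 5 genes, of 14217 genes named on the array, 3 of them for *Pdgfrb* and 1 for each of the other four. *Pdgfb* was not matched to a probe set and is not described. The cells were grown out of minced Achilles tendon, plated at very low density to form colonies and kept in serum-containing medium, and RNA was taken at passage 2. There were 3 groups, TSPCs-1d, TSPCs-7d and TSPCs-56d, each a polyclonal culture from the pooled tendons of at least 2 animals and each measured on 1 Rat Genome 230 2.0 array. No treatment or allele separated the groups beyond the age of the rats. Serum is itself a known source of PDGF.

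PDGF ligands are secreted dimers that draw together and activate receptor tyrosine kinases on mesenchymal cells. PDGF-A and PDGF-C act mainly through the alpha receptor, PDGF-B through both receptors and PDGF-D mainly through the beta receptor. Activated receptors bind adaptors, phosphatidylinositol 3-kinase and phospholipase C gamma through their phosphorylated tyrosines, and fibroblasts answer with division and migration. In connective tissue the alpha receptor marks many fibroblast-like progenitors, and the beta receptor is also known from pericytes.

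The array signals of the 5 measured members differed by at most 1.54-fold between any 2 of the 3 cultures. With the 2-fold cutoff of the study's methods, 0 of the 5 members passed in any comparison. Of all genes, 2.95% passed it between TSPCs-7d and TSPCs-1d, 3.81% between TSPCs-56d and TSPCs-7d, and 3.76% between TSPCs-56d and TSPCs-1d, so a count of 0 in 5 is not a result about the family. The widest difference was that of *Pdgfra*, whose signal in TSPCs-7d stood 1.54-fold above that of TSPCs-1d. The ligand genes *Pdgfa* and *Pdgfc* stood highest in TSPCs-56d and lowest in TSPCs-7d by small margins, *Pdgfrb* was nearly level and *Pdgfd* was faint. With 1 array per age there is no spread between cultures, so no p-value was computed, and a difference from 1 array to the next has no replicate check. In a culture, fewer cells that carry a transcript and less of it per cell cannot be told apart.

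The promoters of 3 members are shown, since *Pdgfra* had the widest difference between ages and *Pdgfa* and *Pdgfc* had the same order of ages. Each runs from 250 bases before to 50 bases after the RefSeq start of the gene in rat assembly GRCr8, 5′ to 3′ on the strand of the gene. *Pdgfra* lies at chr14:33408467-33408766 (minus strand), *Pdgfa* at chr12:20759116-20759415 (plus strand) and *Pdgfc* at chr2:168614918-168615217 (plus strand). Capitals mark matches to the CCAAT box (CCAAT, or ATTGG on the other strand), the GC box (GGGCGG, or CCGCCC) and the TATA box (TATAAA, or TTTATA).
Pdgfra: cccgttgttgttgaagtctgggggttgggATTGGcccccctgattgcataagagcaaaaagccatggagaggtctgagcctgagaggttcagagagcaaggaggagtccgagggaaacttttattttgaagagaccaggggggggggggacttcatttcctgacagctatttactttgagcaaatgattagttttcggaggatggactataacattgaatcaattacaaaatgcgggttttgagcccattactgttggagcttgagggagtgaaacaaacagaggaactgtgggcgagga
Pdgfa: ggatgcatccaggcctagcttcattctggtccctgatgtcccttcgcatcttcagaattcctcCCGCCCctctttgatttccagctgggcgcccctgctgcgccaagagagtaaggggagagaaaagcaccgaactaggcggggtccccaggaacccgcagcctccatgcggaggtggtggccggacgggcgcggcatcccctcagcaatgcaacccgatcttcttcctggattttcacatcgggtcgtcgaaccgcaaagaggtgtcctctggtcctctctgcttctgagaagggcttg
Pdgfc: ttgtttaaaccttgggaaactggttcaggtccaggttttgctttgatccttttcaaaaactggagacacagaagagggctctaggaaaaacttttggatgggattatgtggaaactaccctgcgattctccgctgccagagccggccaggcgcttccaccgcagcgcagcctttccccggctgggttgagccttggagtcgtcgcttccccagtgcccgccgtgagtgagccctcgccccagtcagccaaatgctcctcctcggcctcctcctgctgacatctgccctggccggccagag
The *Pdgfra* window held 1 match, a CCAAT box on the other strand that begins 221 bases before the start. The *Pdgfa* window held 1 GC box on the other strand, 187 bases before the start, and the *Pdgfc* window held 0 matches, so *Pdgfa* and *Pdgfc* shared none of these motifs. Over 33469 rat promoters of this length, 37.5% held a CCAAT box, 33.1% a GC box and 14.2% a TATA box in either strand. A match describes these letters only.

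The receptor gene *Pdgfra* encodes the alpha receptor, which binds PDGF-A and PDGF-C. Its signal was 811 at 1 day, 1248 at 7 days and 1117 at 56 days. The 1-day culture was thus the low one, and both older cultures stood above it. The ratio was 1.54 for TSPCs-7d over TSPCs-1d, 1.38 for TSPCs-56d over TSPCs-1d and 0.89 for TSPCs-56d over TSPCs-7d. As a guide to technical noise, 1719 genes were used that have 2 probe sets of more than median brightness. In 10% of these genes the log2 ratios of the pair differed by more than 0.39, 0.44 and 0.53 for TSPCs-7d over TSPCs-1d, TSPCs-56d over TSPCs-7d and TSPCs-56d over TSPCs-1d. The log2 ratio of *Pdgfra* over TSPCs-1d was 0.62 in TSPCs-7d, beyond that guide, and 0.46 in TSPCs-56d, within it. The guide comes from probes of the same arrays and holds no difference between cultures. A ratio of this size between TSPCs-7d and TSPCs-1d, in either direction, was found in 6.66% of all 31042 probe sets.

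The gene *Pdgfrb* encodes the beta receptor, which binds PDGF-B and PDGF-D. Its brightest probe set gave 1464 at 1 day, 1280.1 at 7 days and 1463 at 56 days. The youngest and the oldest culture were level, and TSPCs-7d was 1.14-fold lower than TSPCs-1d. A second probe set had 203, 216 and 239.5 at the ages in that order, and the third 189, 187 and 188. The brightest and the third had the order 1, 56 and 7 days from high to low, the second the order 56, 7 and 1 days, and both weaker ones carry the same sequence accession, so those are not separate evidence. Their log2 ratios lay within 0.28 of each other for TSPCs-7d over TSPCs-1d, 0.18 for TSPCs-56d over TSPCs-7d and 0.24 for TSPCs-56d over TSPCs-1d. No order of the ages can therefore be read for *Pdgfrb*. By the array's naming, the brightest and the third probe set hold probes that can match more than one transcript.

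The receptors were also set against each other by their changes, with *Pdgfrb* read from its brightest probe set. For TSPCs-7d over TSPCs-1d, the log2 ratio of *Pdgfra* exceeded that of *Pdgfrb* by 0.82, a 1.76-fold difference in change. For TSPCs-56d over TSPCs-1d the difference was 0.46, and for TSPCs-56d over TSPCs-7d it was -0.35. With *Pdgfrb* read from its second probe set, the one without shared probes, they were 0.54, 0.23 and -0.31 in that order, so their size depends on the probe set. The differences were not tested. They compare changes of each gene, since signals of different probe sets do not measure relative amounts of receptor.

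Among the ligands, *Pdgfa* encodes the A chain, a ligand of the alpha receptor. Its signal was 5749 at 1 day, 5418 at 7 days and 6564 at 56 days. The oldest culture was the high one, 1.21-fold above TSPCs-7d and 1.14-fold above TSPCs-1d, and TSPCs-7d was 1.06-fold below TSPCs-1d. *Pdgfc* encodes PDGF-C, a ligand that is secreted in a latent form and must be cut before it binds the alpha receptor. Its signal was 311, 287 and 358 at 1, 7 and 56 days. It followed the same order, with TSPCs-56d 1.25-fold above TSPCs-7d and 1.15-fold above TSPCs-1d. All of these differences were within the noise guide. The order with TSPCs-56d highest and TSPCs-7d lowest was shared by 20.1% of all genes on these arrays.

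The last ligand, *Pdgfd*, encodes PDGF-D, which also needs to be cut and binds mainly the beta receptor. Its signal was 61.3 at 1 day, 45.2 at 7 days and 49.6 at 56 days. All 3 values were below the median of all signals (110.1), and that of TSPCs-7d was below the 25th percentile (48.9), under which signals were treated as dim. When 48.9 takes the place of the dim value, the *Pdgfd* signal of TSPCs-7d lay 1.25-fold below that of TSPCs-1d. This is a log2 ratio of -0.33, within the noise guide of 0.39, which itself comes from brighter probe sets. Whether the transcript was present at such a signal cannot be said, as detection calls were not used here.

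**Figure D1:**
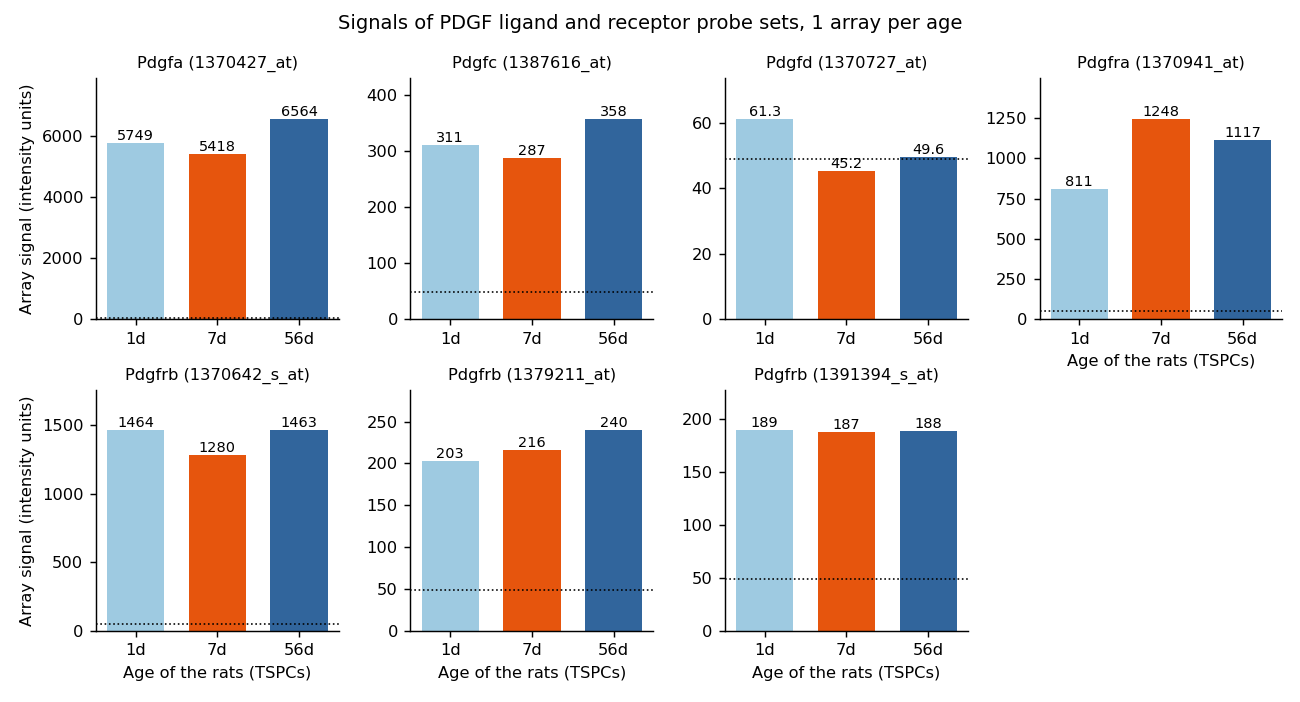
Array signal (intensity units, linear axis from 0, a separate scale in each panel) of the 7 probe sets of PDGF ligands and receptors, 1 bar for the single array of TSPCs at each age (1, 7 and 56 days), with a dotted line at 48.9, the 25th percentile of all signals. *Pdgfra* is lowest in TSPCs-1d (811), *Pdgfrb* shows no common order over its 3 probe sets, and *Pdgfd* stays close to the dotted line.

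At 1.5-fold, *Pdgfra* alone passed, above TSPCs-1d in TSPCs-7d, where 4.82% of all genes were higher by this cutoff and 8.15% passed it in either direction. In the comparisons of TSPCs-56d with TSPCs-7d and with TSPCs-1d, 0 of 5 members passed 1.5-fold, against 10.4% and 11.4% of all genes. The median log2 ratio of the 5 members was -0.12 for TSPCs-7d over TSPCs-1d, 0.19 for TSPCs-56d over TSPCs-7d and 0.19 for TSPCs-56d over TSPCs-1d, against 0.01, 0.05 and 0.06 over all genes. Of the 5, 4 had their lowest signal in TSPCs-7d, as did 32.6% of all genes. Among these are *Pdgfrb*, whose second probe set was lowest in TSPCs-1d, and *Pdgfd*, which was dim in TSPCs-7d. For *Pdgfa* and *Pdgfc* the difference between TSPCs-7d and TSPCs-1d was within the noise guide, so all 4 rest on a weak order. Of the 5, 2 had their highest in TSPCs-56d, as did 44.2%.

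**Figure D2:**
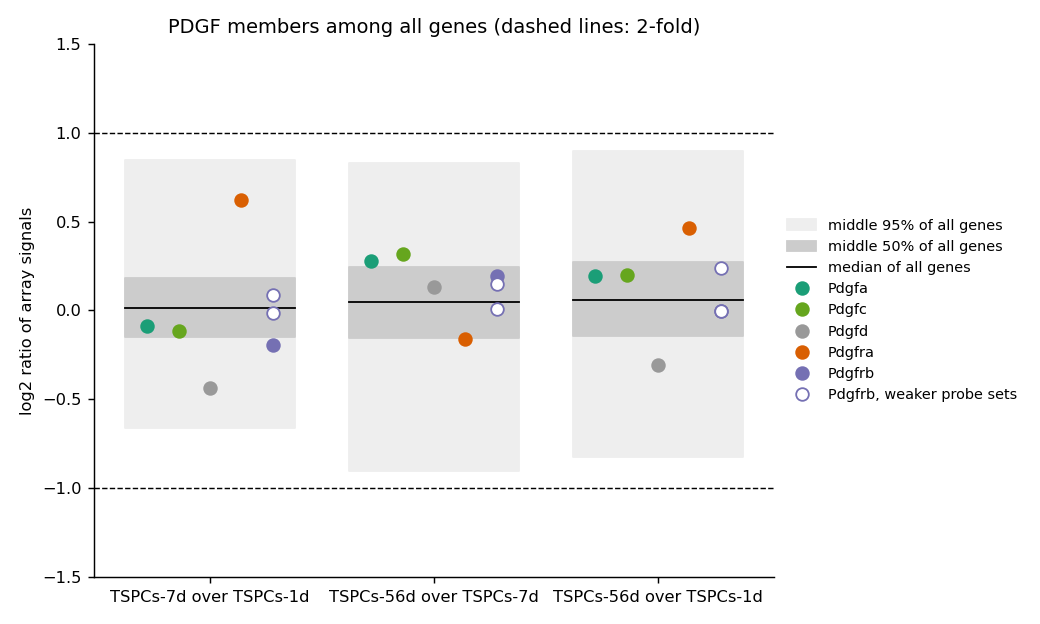
Log2 ratio of array signals (vertical) of the PDGF members for each pair of arrays (horizontal), with filled points for the brightest probe set of a gene, open points for the weaker *Pdgfrb* probe sets, grey bands for the middle 50% and 95% of all 14217 genes and dashed lines at 2-fold. Every member lies between the dashed lines, and *Pdgfra* in TSPCs-7d over TSPCs-1d (0.62) is the point farthest from 0.

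The genes whose pattern over the ages was most like that of each member were sought by the Euclidean distance of log2 signals, each centred on its mean over the 3 arrays, among up to 11582 genes without a dim signal. For *Pdgfra* they were *Asgr2*, a subunit of a liver receptor for glycoproteins, *Rnaseh1*, which removes RNA from RNA-DNA hybrids, and *Tti1*, a partner of large kinases of the TOR and ATM type, at distances of 0.01, 0.02 and 0.03. The signals of *Rnaseh1*, for instance, were 143, 218 and 195. For *Pdgfa* they were *Slc27a1*, a fatty acid transporter, *Dst*, a linker of the cytoskeleton, and *Rffl*, a ubiquitin ligase, and for *Pdgfc* *C7h8orf82*, *Cntnap5bl1* and the kinase gene *Map3k11*. For *Pdgfrb* they were *Jcad*, a protein of cell junctions, the dopamine transporter gene *Slc6a3* and *Serinc2*, and for *Pdgfd* *LOC102547113*, the potassium channel gene *Kcnk13* and the ion exchanger gene *Slc24a4*. All signals of *Slc6a3* and *Kcnk13* were below the median of all signals (110.1), as was that of *Asgr2* in TSPCs-1d. *Pdgfd* itself was dim in TSPCs-7d. With 3 arrays such likeness is frequent: 1081 genes lay within 0.1 of *Pdgfa*, 927 of *Pdgfc*, 1006 of *Pdgfrb* and 212 of *Pdgfd*. Around *Pdgfra* there were 52, but the distance is not scaled for the size of the changes. A member with wider differences, as *Pdgfra* has, therefore tends to have fewer genes near it.

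Around the members, 102 measured genes in 8 lists of the pathway and its relatives were examined. For TSPCs-7d vs. TSPCs-1d, 1 was more than 2-fold higher and 2 lower (2.94% of them), where 1.87% of all genes were higher and 1.08% lower. For TSPCs-56d vs. TSPCs-7d, 4 were higher and 2 lower (5.88%), against 1.72% and 2.10% of all genes. For TSPCs-56d vs. TSPCs-1d, 4 were higher and 2 lower (5.88%), against 2.00% and 1.77%. Both counts of higher genes in TSPCs-56d exceeded that background by few genes, while 2 lower genes are close to it, and no test was made of the difference.

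PDGF ligands are processed inside the cell or released from a latent form by proteases. Of 8 such genes measured, 0 passed 2-fold in any comparison, and 1, *Klk1*, was dim on all arrays. Examples were chosen by their role after their values were seen. The tissue plasminogen activator gene *Plat*, whose product cuts PDGF-C, had signals of 2103, 2542 and 1849 at 1, 7 and 56 days. The urokinase gene *Plau*, whose product cuts PDGF-D, had 323, 237 and 319, and was thus lowest at 7 days, where *Plat* was highest. The matriptase gene *St14*, another protease for PDGF-D, had 123, 148 and 145. *Furin*, which trims the A and B chains inside the cell, had 290.4, 329.7 and 359. The median log2 ratio of this list was 0.11 for TSPCs-7d over TSPCs-1d, 0.03 for TSPCs-56d over TSPCs-7d and -0.02 for TSPCs-56d over TSPCs-1d, and medians of the lists below are given in this order.

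Among 11 genes of PDGF binding proteins and co-receptors, 0 passed 2-fold in TSPCs-7d vs. TSPCs-1d. In TSPCs-56d, 1 was higher than in both younger cultures and 0 were lower. This was *Itgb3*, the integrin beta 3 subunit, which pairs with alpha V and cooperates with the beta receptor in fibroblasts. Its signals were 173, 201 and 669 at these ages, which put TSPCs-56d 3.33-fold above TSPCs-7d and 3.87-fold above TSPCs-1d. Its partner *Itgav*, named for that role after its values were seen, had 1690.3, 1603 and 2149.7. The medians of the list were 0.08, 0.19 and 0.14. The following genes were singled out after their values were seen. The co-receptor gene *Nrp1* had 909, 1287 and 1465, and 719, 1009.8 and 1158 in its weaker probe set. Both its probe sets were thus lowest in TSPCs-1d, as *Pdgfra* was, and TSPCs-7d was 1.42-fold and 1.40-fold above TSPCs-1d. *Pdgfrl*, a receptor-like gene without a kinase, had 1285, 1704 and 1416, with the order of ages of *Pdgfra*. On these arrays 37.9% of all genes were lowest in TSPCs-1d, and 13.8% had the order of *Pdgfra*. Of the 11 genes, 5 went the other way, with a ratio of TSPCs-7d to TSPCs-1d below 1. The related co-receptor gene *Nrp2* was among them and highest in TSPCs-1d, with 2113, 1583 and 1922. *Sparc*, which encodes a matrix protein that binds PDGF, was level, with 16275, 15548 and 16163.

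Of 24 adaptors, kinases and STAT factors at the receptors, 1 was higher in TSPCs-7d vs. TSPCs-1d and 1 lower in TSPCs-56d vs. TSPCs-7d, and both counts come from a single gene. It was *Jak2*, a kinase best known from cytokine receptors, with 212.5, 985 and 338. The median log2 ratio of this list was 0.02 in each of the comparisons. Of 9 genes of the Ras, MAPK and Akt steps, 0 passed in any comparison, with medians of -0.01, -0.05 and 0.07. A further 7 genes of this list had no probe set of their own name alone. The core relay below the receptors was therefore measured only in part.

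Of 16 measured brakes on the receptors and their relay, 0 passed 2-fold in TSPCs-7d vs. TSPCs-1d, and in TSPCs-56d 1 was higher and 1 lower in each comparison with a younger culture. *Spry1*, a Sprouty inhibitor of the Ras relay, was the higher one, with 151, 167 and 588, 3.52-fold above TSPCs-7d and 3.90-fold above TSPCs-1d. *Lrig1*, which promotes the breakdown of receptor tyrosine kinases, was the lower one, with 505, 307 and 114, 2.70-fold below TSPCs-7d and 4.44-fold below TSPCs-1d. It was lower at each later age. The median log2 ratio of the list was -0.24 in TSPCs-7d over TSPCs-1d, against a median of 0.01 over all genes. In the other comparisons it was -0.02 and -0.14. In TSPCs-7d over TSPCs-1d, 11 of 16 genes were below a ratio of 1. The other 5, *Cbl*, *Ptpn1*, *Ptpn2*, *Ptpn6* and *Spry1*, were above it. The 3 orders of ages with TSPCs-7d below TSPCs-1d were held by 12.5%, 15.0% and 20.1% of all genes. The difference from that background was not tested. *Socs1*, among the 11, was dim in TSPCs-7d, and *Ptpn6*, among the 5, was dim in TSPCs-1d. Of the 11, *Dusp6*, *Spry4* and *Spry2* were named after their values were seen. *Dusp6*, a phosphatase of ERK, was highest in TSPCs-1d in all 3 of its probe sets. The brightest had 3514, 2385 and 2300.4, and the ratio of TSPCs-7d to TSPCs-1d was 0.68, 0.73 and 0.43 over the probe sets. *Spry4* had 858, 549.5 and 552, and *Spry2* 948, 730.1 and 517.

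Genes that PDGF induces early in resting fibroblasts gave 0 of 20 past 2-fold in TSPCs-7d vs. TSPCs-1d. In TSPCs-56d vs. TSPCs-7d, 1 was higher and 0 were lower. It was the nuclear receptor gene *Nr4a1*, with 404, 247 and 677, which put TSPCs-56d 2.74-fold above TSPCs-7d. In TSPCs-56d vs. TSPCs-1d, 1 was higher and 0 were lower, the chemokine gene *Ccl2*, with 4509, 6045 and 11379, a 2.52-fold difference. The medians of the list were -0.10, 0.17 and 0.11. *Fos* was level, with 373, 377 and 425, while the AP-1 gene *Fosl1* had 584, 361 and 334. *Fos* and *Fosl1* were chosen after their values were seen.

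Related families were also set beside the members. Of 8 VEGF ligands and receptors, which share the fold of the PDGF chains or the kinase of their receptors, 0 were higher and 1 was lower in TSPCs-7d vs. TSPCs-1d, and that gene was also the single lower one in TSPCs-56d vs. TSPCs-1d. This was *Vegfd*, a growth factor of lymphatic vessels, with 222, 58.7 and 93.7, so that it exceeded the median of all signals in TSPCs-1d alone. The medians of this list were -0.05, 0.24 and 0.11. Of 6 other receptor kinases of the PDGF receptor class and their ligands, 0 were higher and 1 was lower in TSPCs-7d vs. TSPCs-1d, and 1 was higher and 0 were lower in each comparison of TSPCs-56d with a younger culture, with medians of 0.09, 0.36 and 0.30. *Csf1*, the ligand of the macrophage receptor, had 505, 617 and 1212, with TSPCs-56d 2.40-fold above TSPCs-1d. Its 3 weaker probe sets gave 1.48-fold, 1.60-fold and 1.29-fold. *Kit*, named because its count falls outside the rule on bright signals, had 89.5, 24.6 and 105. It counted as lower in TSPCs-7d vs. TSPCs-1d and as higher in TSPCs-56d vs. TSPCs-7d, but all of its signals lay below the median of all signals and that of TSPCs-7d was dim.

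**Figure D3:**
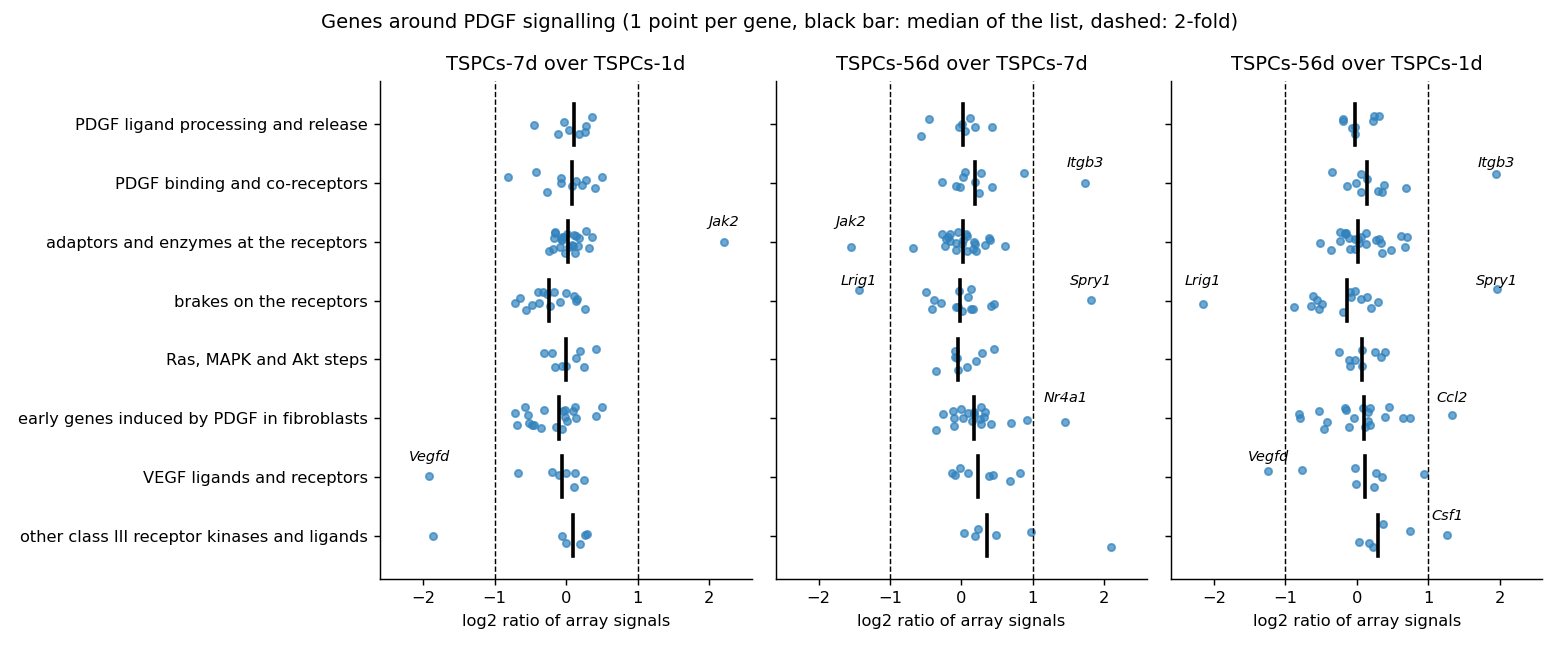
Log2 ratio of array signals (horizontal) for each of 102 genes (1 point) in 8 lists around PDGF signalling (vertical), in a panel for each pair of arrays, with the median of each list as a black bar and dashed lines at 2-fold. Genes past 2-fold that are bright in at least 1 array carry their names, and most points of each list lie between the dashed lines.

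**Figure D4:**
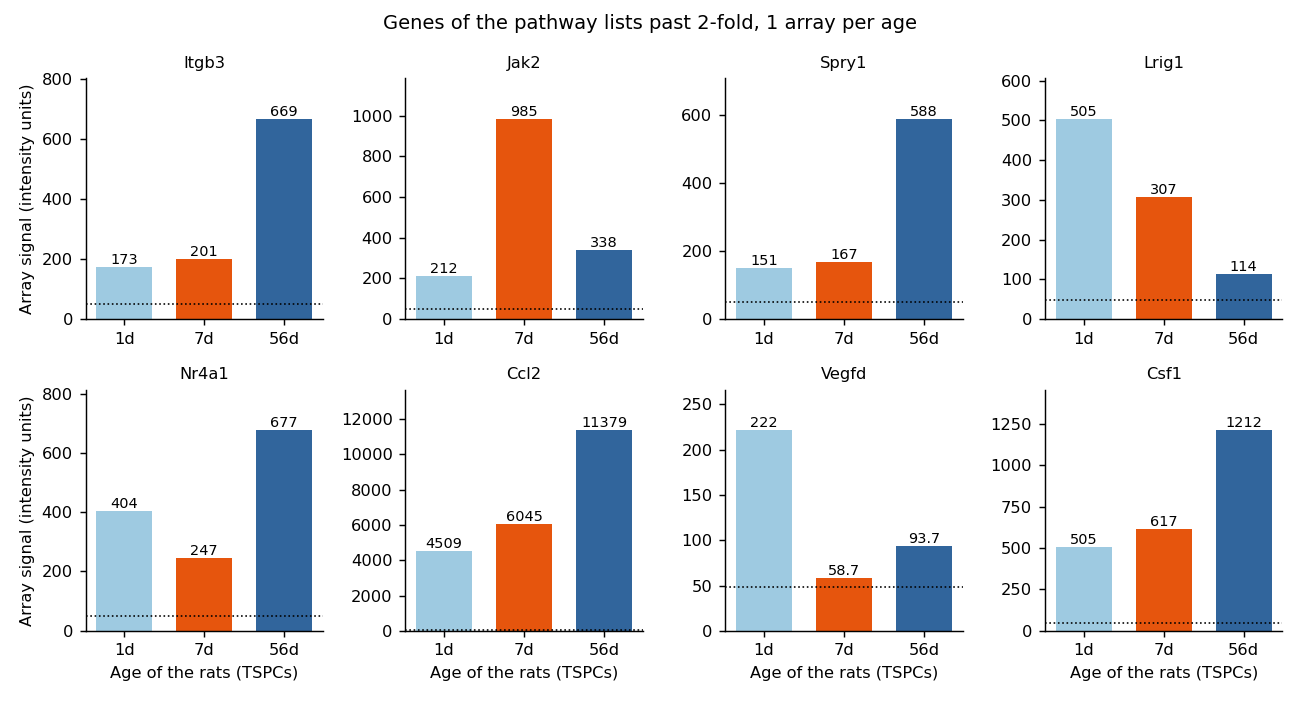
Array signal (intensity units, linear axis from 0, a separate scale in each panel) of the 8 bright genes of these lists past 2-fold in any comparison, 1 bar for the single array at each age (1, 7 and 56 days), with a dotted line at 48.9. *Itgb3*, *Spry1*, *Ccl2* and *Csf1* are highest in TSPCs-56d, *Jak2* in TSPCs-7d (985), and *Lrig1* (505) and *Vegfd* (222) in TSPCs-1d.

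Markers of the cells that could carry these genes were read on the same arrays. The brightest of each list is given, and after their values were seen the markers past 2-fold were added, as were *Scx*, *Rgs5*, *Pecam1* and *Ptprc* for their role. All 9 measured tendon markers were above the dim level on every array, led by the collagen gene *Col1a2* (18751, 19315 and 18760), and the tendon factor gene *Scx* had 2255, 2578 and 2569. *Mkx* was not matched to a probe set. Of the 9, 2 were more than 2-fold higher and 0 lower in TSPCs-7d vs. TSPCs-1d, 0 higher and 1 lower in TSPCs-56d vs. TSPCs-7d, and 2 higher and 1 lower in TSPCs-56d vs. TSPCs-1d. The matrix genes *Thbs4* and *Fmod* had 76.5, 340 and 348 and 271, 774 and 408. Both were thus lowest in TSPCs-1d, as were *Pdgfra* and 37.9% of all genes. The matrix gene *Tnc* had 5280, 7303 and 11185 and was higher at each later age, whereas the late tendon marker *Tnmd* had 543, 351 and 158 and was lower at each. The tendon list summed to 60708, 64342 and 67445.

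The 7 mesenchymal surface markers summed to 18106, 16954 and 19741, led by *Itgb1* (9072, 8999.8 and 9797). Within this list the adhesion gene *Mcam* had 2182, 929.95 and 927, highest in TSPCs-1d in both of its probe sets, and the enzyme gene *Nt5e* had 41.9, 49.3 and 110.2, dim in TSPCs-1d. Of 9 markers of pericytes and smooth muscle, cell types that use the beta receptor, the brightest was *Acta2*, with 9048, 7419 and 9316. The single one past 2-fold was the smooth muscle myosin gene *Myh11*, with 2186, 1671 and 5067, 3.03-fold above TSPCs-7d and 2.32-fold above TSPCs-1d in TSPCs-56d, against 1.31-fold and 1.82-fold in its weaker probe set. The sum over this list was 17901, 14229 and 21519, lowest in TSPCs-7d, whereas the pericyte marker *Rgs5* was near or below the dim level, with 58.6, 36.6 and 41.2.

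Of 7 endothelial markers, 4 were dim on all arrays, *Pecam1* among them (23.3, 18.0 and 22.9), the brightest was *Esam* (124, 116 and 168), and the sum was 384, 389 and 452. Of 8 markers of macrophages and blood cells, 3 were dim on all arrays, including the pan-leukocyte gene *Ptprc* (between 20.8 and 30.6), the highest signal was that of *Laptm5* (146, 141 and 167), and the sum was 651, 629 and 712. The 5 platelet markers summed to 385, 384 and 422.5, led by *Itga2b* (122, 103 and 137). The sums over 5 skeletal muscle markers were 2043, 1170 and 5677, mostly from *Acta1* (1772, 855 and 5327), and over 5 cartilage markers 8836, 8495 and 3139, nearly all from *Acan* (8588, 8224 and 2874). The tendon and endothelial lists had their lowest sum in TSPCs-1d, where *Pdgfra* was lowest too. The other lists had theirs in TSPCs-7d or TSPCs-56d. The tendon sum was mostly collagen signal, which was near level. *Tnc* (5280, 7303 and 11185) gave most of its rise, and *Tnmd* went the other way. The endothelial sums of TSPCs-1d and TSPCs-7d were nearly level, and 37.9% of all genes had their lowest signal in TSPCs-1d. The part of any of these cells in the signals of the members was not tested.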

How the data were processed

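Total RNA of cultured TSPCs was hybridized to Affymetrix Rat Genome 230 2.0 arrays, 1 per age (3 arrays). According to the methods the authors normalized and summarized the scans with both MAS5 and RMA, whereas only MAS5 appears in the submitters' processing notes. The authors deposited 1 intensity on a linear scale per probe set (31042 in all), and it is not stated which procedure made it. The number of arrays limits the precision. Median signals were 107, 108 and 114 at 1, 7 and 56 days, so signals were used without further scaling. The kit and RNA amount for labelling differ between the methods and the sample labels.

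Fold changes were computed as the later age over the earlier, with a cutoff of 2. No test was possible with 1 array per age. Signals under 48.9, the 25th percentile, were dim. Each gene was read from its brightest probe set, by the mean of all arrays. A single gene symbol is given to 20826 probe sets, of which 20758 were matched by gene ID to RefSeq symbols of assembly GRCr8. Promoters came from RefSeq. The lists hold proteases, binding proteins, adaptors, brakes, relay kinases, early genes, related families and cell type markers. Named genes are all members, list genes past 2-fold that exceed the median signal in at least 1 array of the pair (up to 4 per list, direction and comparison), the 3 nearest patterns per member and the brightest marker of each list, and others are said to have been chosen after their values were seen. The members and lists were chosen with earlier results of these data known. The calculation was tested on simulated data with planted changes and no noise, which checks the arithmetic and not the precision of these arrays. Python 3.11.15, numpy 2.4.6, pandas 2.3.3, statsmodels 0.14.6 and matplotlib 3.10.9 were used.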

Additional observations from a re-analysis of the deposited data

How the results depend on the processing

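The 15 member ratios were recomputed under 8 alternatives: division by the array median, quantile normalization, loess centring (span 0.2), signals raised to the 25th percentile or to the median, a pseudocount of 32, averaging all probe sets per gene, and no probe sets shared between transcripts. Of 120 values, 119 moved by less than the noise guide. The exception was *Pdgfd* in TSPCs-7d over TSPCs-1d, at a log2 ratio of 0 instead of -0.44 with signals raised to the median, because both were below it. Many of the values could not move. Averaging probe sets and leaving out shared ones changed *Pdgfrb* alone among the members, and raising low signals changed *Pdgfd* alone. The log2 ratio of *Pdgfra* in TSPCs-7d over TSPCs-1d stayed between 0.60 and 0.62. Only the median division, quantile normalization, loess centring and the pseudocount could change it. In 4 values the direction turned, all of *Pdgfrb*: without shared probe sets its log2 ratio was 0.09 in TSPCs-7d over TSPCs-1d and 0.24 in TSPCs-56d over TSPCs-1d, and in the second comparison, where it was 0.00 before, it was 0.01 after loess centring and 0.03 for the mean of probe sets. At a cutoff of 1.5, 1 member passed in TSPCs-7d vs. TSPCs-1d instead of 0, and 0 in the others. Of the 102 pathway genes, 9, 14 and 20 passed at 1.5-fold in TSPCs-7d vs. TSPCs-1d, TSPCs-56d vs. TSPCs-7d and TSPCs-56d vs. TSPCs-1d, instead of 3, 6 and 6 at 2-fold. Of all genes, 8.15%, 10.4% and 11.4% passed 1.5-fold in that order. At 3-fold, 3, 3 and 3 of the pathway genes passed, and the share of all genes was not counted. Without shared probe sets, 98 of these genes could be read. No replicate could be left out and no paired analysis was possible because each age has 1 array.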
